A study of Mus musculus with 6 samples.

Results

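Solute carriers are membrane proteins that move amino acids, sugars, nucleotides, metals, inorganic ions and other small molecules across the plasma membrane or the membranes of organelles, and each family carries an Slc number in its gene symbols. The members described here are the genes of the deposited table whose symbol begins with Slc and a digit and which reached 1 FPKM (fragments per kilobase of transcript, scaled to the fragments of the library) in at least 3 of 6 libraries, leaving out Slc7a2, Slc7a11, Slc11a1, Slc11a2, Slc16a1, Slc16a3 and Slc40a1. They number 170 of 375 Slc genes in the table and of 10405 genes tested. The members were chosen by their level, FPKM in single libraries of both groups, and no difference between the groups was used in the rule, but the 7 genes were left out with earlier results of these data known. Of these 7, Slc7a2 was called lower (log2 fold change -1.03) and Slc16a1 higher (1.91).

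Cells of bronchoalveolar lavage fluid, which is saline washed through the airways, were taken from mice given 20 µg of sulfatide by injection into the peritoneal cavity (n = 3 libraries, replicates 1, 2 and 3) and from mice given vehicle (n = 3 libraries, replicates 2, 3 and 4), and their poly(A) RNA was sequenced. Sulfatide is a sulfated glycolipid of myelin and other membranes, and an antigen of type II natural killer T cells. The title of the series names lung ischemia and reperfusion, but the labels give neither that procedure, nor strain or age, nor whether libraries came from separate animals, so the spread behind each p-value is that between these libraries and may be technical only. Values of single libraries are given below in the order sulfatide 1, 2 and 3, and vehicle 2, 3 and 4.

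Solute carriers in macrophages supply amino acids for growth and nitric oxide or polyamine synthesis, glucose for glycolysis, and metals and heme taken from engulfed red cells. Others sit in the endolysosome, where they release peptides, amino acids and nucleosides from digested material, or in the inner mitochondrial membrane, where they exchange metabolites with the cytosol. Carriers of the Golgi bring in the sugar nucleotides used for glycosylation.

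The 5 macrophage markers summed to between 26676 and 37805 FPKM in sulfatide libraries and to between 28945 and 33571 FPKM in vehicle libraries, and none was called. That sum is mostly Lyz2, while Adgre1, Cd68 and Csf1r averaged 433, 658 and 658 FPKM in sulfatide and 532, 628 and 779 FPKM in vehicle libraries, and Mertk 3.73 FPKM in sulfatide and 3.18 FPKM in vehicle libraries. Of the alveolar macrophage markers, Siglecf averaged 0.790 FPKM in sulfatide and 0.157 FPKM in vehicle libraries, and Car4 0.483 FPKM in sulfatide and 0.530 FPKM in vehicle libraries. Marco averaged 103 FPKM in sulfatide and 93.1 FPKM in vehicle libraries, Chil3 31.2 FPKM in sulfatide and 25.1 FPKM in vehicle libraries, and Pparg 0.893 FPKM in sulfatide and 1.03 FPKM in vehicle libraries. The 5 markers of that list summed to between 84.2 and 230 FPKM in sulfatide and to between 103 and 136 FPKM in vehicle libraries. The 6 neutrophil markers summed to between 372 and 507 FPKM in sulfatide and to between 110 and 145 FPKM in vehicle libraries. That sum is mostly S100a8, the 1 of its 2 tested genes that was called higher, while Ly6g and Cxcr2 averaged at most 0.0600 FPKM in either group. S100a9, the other tested gene, averaged 21.2 FPKM in sulfatide and 21.9 FPKM in vehicle libraries (log2 fold change -0.15) and was not called. Retnlg and Mpo, too low to be tested, averaged less in sulfatide than in vehicle libraries, with overlapping groups. The higher sum of this list therefore rests on S100a8. Fibroblast and mural markers summed to between 48.5 and 63.5 FPKM in sulfatide and to between 54.8 and 70.7 FPKM in vehicle libraries, with 1 of 4 genes called, Pdgfrb, which was lower in sulfatide (1.83 FPKM) than in vehicle (6.33 FPKM). T and NK cell and lung epithelium markers each summed to at most 0.380 FPKM in any library, and red cell markers to at most 1.47 FPKM, with Cd3e, Nkg7, Sftpc, Krt18 and Hbb-bs at 0 throughout. The part of these markers in the results on solute carriers was not tested, and in these bulk samples fewer cells of a type and less RNA per cell cannot be told apart. FPKM summed to between 1217971 and 1249691 in sulfatide libraries and to between 1126779 and 1168474 in vehicle libraries. The absolute depth is unknown. From the most frequent ratio of low values, depth relative to vehicle replicate 2 was about 1.07, 1.20 and 0.849 in sulfatide libraries, against 1.06 and 1.01 in vehicle replicates 3 and 4.

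The members covered almost 3 decades of level, with means over the 6 libraries of 0.918 to 809 FPKM and a median of 15.3 FPKM. All 6 libraries reached 1 FPKM for 156 members and 3 to 5 libraries did so for 14. Just inside the threshold lay 5 genes that reached 1 FPKM in 3 libraries. Among them Slc6a4 passed through the vehicle libraries alone, and Slc22a21 through the sulfatide libraries alone (1.40, 1.07 and 1.26 FPKM, against 0.810, 0.890 and 0.80 FPKM in vehicle). Just outside lay Slc25a18 (0.690, 0.680 and 0.670 FPKM in sulfatide, against 1.31, 1.85 and 0.720 FPKM in vehicle), Slc16a9 and Slc25a29, with 2 libraries each at 1 FPKM. The symbols of 3 members name genes that are not transporters: Slc9a3r1, which encodes the scaffold protein NHERF1, Slc7a6os and Slc4a1ap. Summed over all members, the level was 7137, 7564 and 7285 FPKM in sulfatide libraries, against 8092, 7948 and 8404 FPKM in vehicle libraries. The groups did not overlap, but such a sum weighs the abundant members most. The median log2 fold change over the members was -0.01. The members held 0.571 to 0.621% of the summed FPKM in sulfatide and 0.680 to 0.746% in vehicle libraries.

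By mean level over the 6 libraries, 8 carriers stood at the top. Slc3a2, the heavy chain that partners the amino acid exchangers of the Slc7 family at the cell surface, stood at 697, 749 and 716 FPKM in sulfatide libraries, against 871, 832 and 986 FPKM in vehicle libraries. Slc15a3, an endolysosomal carrier of histidine and small peptides, came next, followed by Slc31a2, Slc25a3, Slc31a1, Slc25a5, Slc25a4 and Slc2a1. Slc31a1 and Slc31a2 are the copper transporters CTR1 and CTR2. The 3 mitochondrial ones carry phosphate (Slc25a3) and exchange ADP for ATP (Slc25a4 and Slc25a5), and Slc2a1 is the glucose transporter GLUT1. Of these 8 members, 3 were lower in sulfatide (Slc3a2, Slc15a3 and Slc31a2) and none was higher. Among all genes tested with a mean of 100 FPKM or more, 27.5% were called, with 14.6% lower and 12.9% higher.

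Sulfatide and vehicle libraries were compared with limma over all 10405 genes, on log2(FPKM + 1), a scale that understates the change of low genes, and a gene was called at a Benjamini-Hochberg adjusted p below 0.05. Of 170 members, 21 were lower and 8 higher in sulfatide, 17.1% in all, against 18.7% of all genes tested. Lower members made up 12.4%, against 10.4% of all genes tested, and higher members 4.71%, against 8.31%. After rescaling to TPM, in which the levels of each library sum to the same total, 29 members were lower and 5 higher, so that 14.7% of the called members were higher, against 27.6% on the deposited scale. Over all genes tested the share of calls that were higher moved in the same way, to 23.4% after rescaling, against 44.5% on the deposited scale. Leaving out vehicle replicate 2 gave 2 higher and 9 lower members, leaving out sulfatide replicate 3 gave 4 and 12, and leaving out sulfatide replicate 1 gave 3 higher members. In the same fits 8.75, 10.9 and 10.6% of all genes tested were called, against 18.7% with all libraries. Values after ± are standard errors for log2 fold changes and SDs over the 3 libraries of a group for FPKM. The median log2 fold change was -0.01 over the members and 0.04 over all genes tested. For 150 members the log2 fold change was within 0.5 of 0, which is 88.2% of them, against 85.7% of all genes tested. The log2 fold change reached -1 or less for 4 members (Slc7a8, Slc25a22, Slc6a12 and Slc4a7) and was at most 0.81 for a rise (Slc26a11). All values of the groups were separate for 56 members (22 above, 34 below), or 32.9%, against 37.0% of all genes tested. Among these are Slc22a21 (above) and Slc6a4 (below), which each reached 1 FPKM in 1 group alone. The rule itself set their separation, and Slc6a4 is also among the 21 lower members. All genes tested passed the same level filter.

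**Figure D1:**
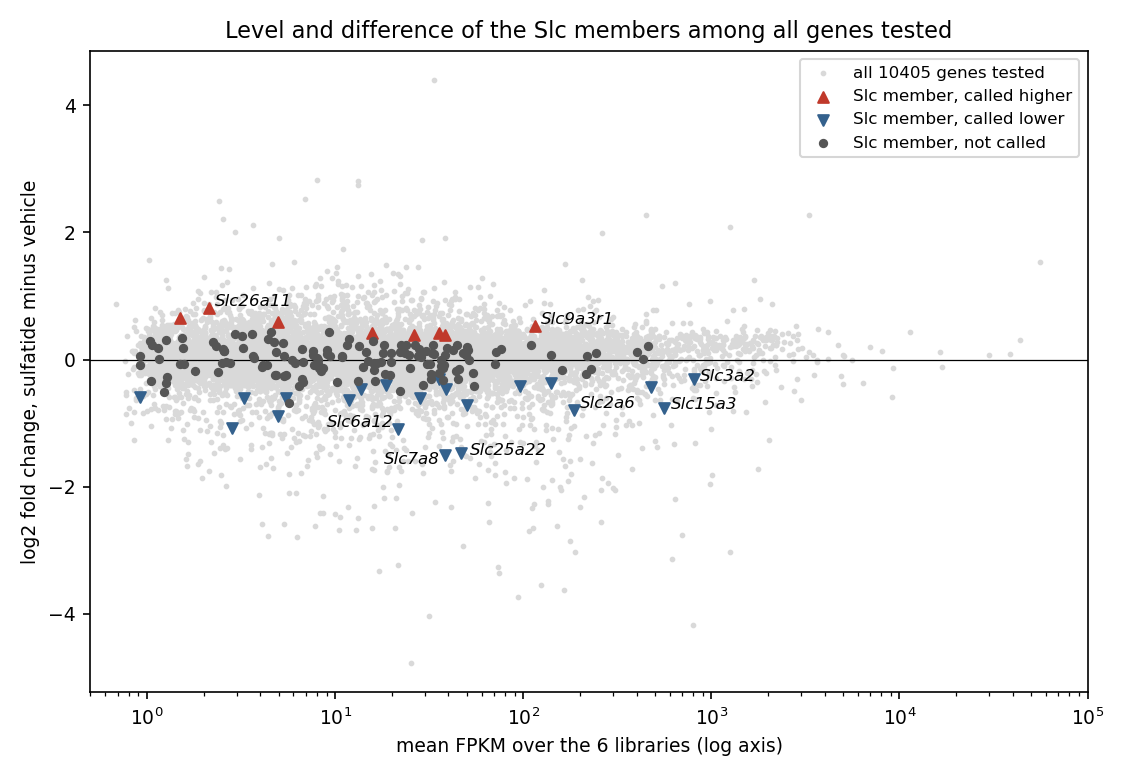
Mean level over the 6 libraries (FPKM, log axis) against the log2 fold change, sulfatide minus vehicle on log2(FPKM + 1), for the 170 Slc members on top of all 10405 genes tested (grey). Triangles mark called members, 8 higher and 21 lower in sulfatide. The members lie between -1.50 (Slc7a8) and 0.81 (Slc26a11), with most of them around 0.

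Of the 29 called members, 11 passed in each of the 6 fits that left out 1 library: Slc7a8, Slc25a22, Slc6a12, Slc4a7, Slc2a6, Slc15a3, Slc12a4, Slc25a12 and Slc25a37, which were lower, and Slc9a3r1 and Slc2a8, which were higher. The libraries whose omission ended the call of the other 18 are named with them below.

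**Figure D2:**
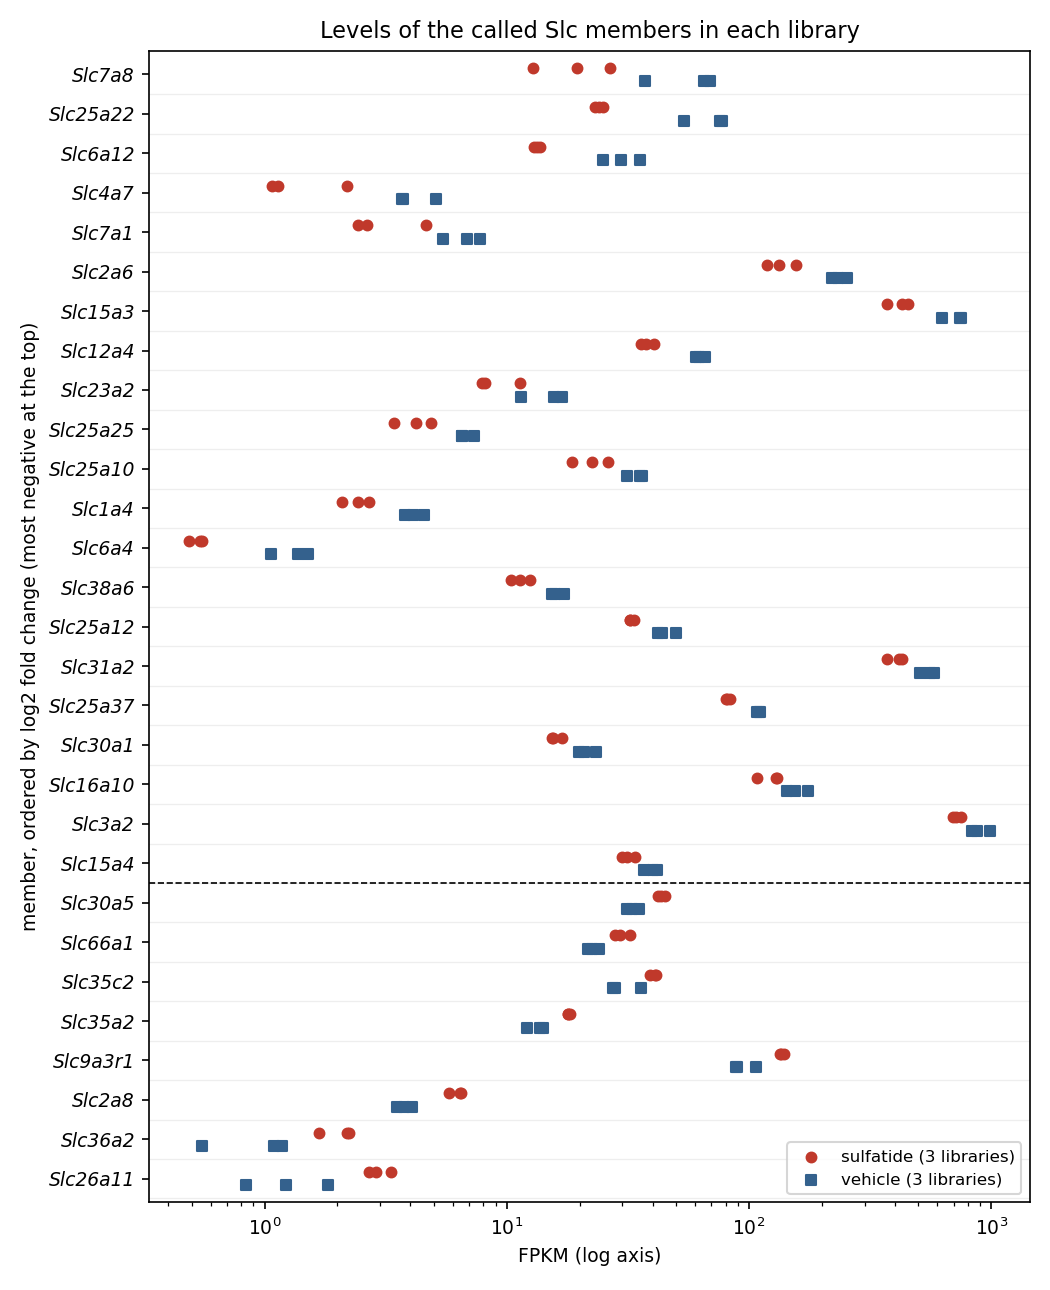
FPKM (log axis) of the 29 called members in each library, 3 sulfatide libraries (circles) drawn above 3 vehicle libraries (squares) for each gene, ordered by log2 fold change. The 21 members above the dashed line were lower in sulfatide and the 8 below it higher. The groups do not overlap for any of the 29, but the same values gave the calls, so this adds no support. For Slc6a4, which entered through the vehicle libraries alone, the rule itself set the separation.

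Amino acid carriers held more of the called members than the other classes did in number, with 7 lower and 1 higher among 26, or 30.8% against 18.7% of all genes tested, and a class median log2 fold change of -0.17. Without Slc6a4, which reached 1 FPKM in the vehicle libraries alone, 7 of 25 were called, or 28.0%. The class follows the family number and not the substrate of each member. Slc16a10 (called lower) and Slc66a1 (called higher), which also carry amino acids, are therefore counted elsewhere. Slc7a8 encodes LAT2, an exchanger of neutral amino acids that works as a pair with Slc3a2. It stood at 12.9, 26.8 and 19.5 FPKM in sulfatide libraries, against 65.3, 37.2 and 68.9 FPKM in vehicle libraries, 2.90-fold lower (log2 fold change -1.50 ± 0.28, adjusted p = 0.00661). Each sulfatide library lay under each vehicle library, although sulfatide replicate 2 and vehicle replicate 3 came within 10.5 FPKM of each other. The log2 fold change was -1.78 to -1.08 over the alternatives. Slc6a12, a carrier of betaine and GABA, stood at 13.3, 13.0 and 13.7 FPKM in sulfatide libraries, against 24.9, 29.6 and 35.3 FPKM in vehicle libraries, 2.25-fold lower (log2 fold change -1.10 ± 0.13, adjusted p = 0.000557). The 3 sulfatide libraries were within 0.700 FPKM of each other. The gene lies on chromosome 6 at 121343076 to 121365775 (mm10), 5343 bases from the end of Slc6a13, a GABA carrier of the same family. Slc6a13 was at 1.86, 1.69 and 1.59 FPKM in sulfatide libraries, against 1.19, 1.56 and 1.45 FPKM in vehicle libraries (log2 fold change 0.18, 95% interval -0.11 to 0.46, adjusted p = 0.349).

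Because Slc7a8 had the largest log2 fold change of the 170 members, the stretch around its start of transcription is given, from 250 bases before it to 50 bases after it, as RefSeq annotates it on GRCm38.p6 (chr14:54781837-54782136, minus strand). None of the 4 motifs searched, which are spelled out beside Slc25a22, is in it.
Slc7a8: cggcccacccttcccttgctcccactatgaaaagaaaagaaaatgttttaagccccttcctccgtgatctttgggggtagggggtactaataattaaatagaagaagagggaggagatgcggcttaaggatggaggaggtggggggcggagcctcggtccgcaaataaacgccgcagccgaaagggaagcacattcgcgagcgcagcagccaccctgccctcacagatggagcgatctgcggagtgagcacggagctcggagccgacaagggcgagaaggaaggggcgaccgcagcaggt

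The remaining amino acid carriers differed less. Slc3a2, the abundant heavy chain, fell to 721 ± 26.6 FPKM in sulfatide, against 896 ± 80.1 FPKM in vehicle libraries (SD, n = 3 each, log2 fold change -0.31 ± 0.09, adjusted p = 0.0399). It passed in 1 of the 6 fits that left out a library, the one without vehicle replicate 3, and its adjusted p was 0.115 and 0.123 without vehicle replicates 2 and 4, and 0.131, 0.0517 and 0.120 without sulfatide replicates 1, 2 and 3. Its partners Slc7a5 and Slc7a7 did not pass the test. Slc7a5, the exchanger LAT1, had 25.3 ± 5.59 FPKM in sulfatide and 33.3 ± 3.46 FPKM in vehicle libraries (log2 fold change -0.40, 95% interval -0.74 to -0.06, adjusted p = 0.0970, and 0.0162 without sulfatide replicate 2). Slc7a7, the cationic amino acid exchanger whose loss causes lysinuric protein intolerance in humans, had 35.6 ± 3.73 FPKM in sulfatide and 38.9 ± 0.664 FPKM in vehicle libraries (log2 fold change -0.13, 95% interval -0.35 to 0.09, adjusted p = 0.382). The exons of Slc7a7 overlap those of Oxa1l on the opposite strand, and without knowledge of whether counting used the strand their fragments cannot be told apart. Within the 5 Slc7 members Slc7a8 made up 14.3, 24.6 and 21.5% of the summed FPKM in sulfatide libraries, against 42.1, 30.1 and 42.8% in vehicle libraries, and Slc7a7 44.3, 29.9 and 38.1%, against 24.9, 32.0 and 23.8%. The share of Slc7a8 was separate between the groups and that of Slc7a7 overlapped. These are not shares of the whole family, since the rule left out Slc7a2 and Slc7a11. Both averaged more FPKM than any of the 5 in either group. Slc7a2 averaged 64.65 FPKM in sulfatide and 132.45 FPKM in vehicle libraries, and Slc7a11 113 FPKM in sulfatide and 139 FPKM in vehicle libraries.

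Slc7a1, a carrier of arginine and lysine, was at 2.64, 4.66 and 2.43 FPKM in sulfatide libraries, against 6.88, 5.45 and 7.74 FPKM in vehicle libraries (log2 fold change -0.88 ± 0.20, adjusted p = 0.0178). It did not pass without vehicle replicates 2 (adjusted p = 0.0741) or 4 (0.0659), or sulfatide replicates 1 (0.0548) or 3 (0.0617). Slc1a4, the neutral amino acid exchanger ASCT1, had 2.41 ± 0.310 FPKM in sulfatide and 4.15 ± 0.367 FPKM in vehicle libraries (log2 fold change -0.60 ± 0.13, adjusted p = 0.0118, and 0.0607 without vehicle replicate 2). Slc1a5, the glutamine carrier ASCT2, had 39.1 ± 0.227 FPKM in sulfatide and 37.1 ± 3.92 FPKM in vehicle libraries and was not called (log2 fold change 0.08, 95% interval -0.14 to 0.30, adjusted p = 0.611, -0.03 after rescaling to TPM). Slc38a6, of the neutral amino acid family, had 11.4 ± 1.06 FPKM in sulfatide and 16.1 ± 1.01 FPKM in vehicle libraries (log2 fold change -0.47 ± 0.11, adjusted p = 0.0180). Its call was lost without vehicle replicate 2 (0.0844), sulfatide replicate 1 (0.0543) or sulfatide replicate 3 (0.0753). Slc38a2, the neutral amino acid carrier SNAT2, had 28.9 ± 4.04 FPKM in sulfatide and 35.7 ± 1.81 FPKM in vehicle libraries (log2 fold change -0.30, 95% interval -0.56 to -0.05, adjusted p = 0.0917, and 0.0259 without sulfatide replicate 2). Slc6a4, the serotonin transporter, is one of the genes near the threshold, with 0.540, 0.550 and 0.490 FPKM in sulfatide libraries, against 1.38, 1.06 and 1.51 FPKM in vehicle libraries (log2 fold change -0.60 ± 0.13, adjusted p = 0.0155). Since it entered through the vehicle libraries alone it had to be lower in sulfatide, and its call was lost without vehicle replicates 2 (0.0676) or 4 (0.0550) or sulfatide replicate 3 (0.0520). The 1 higher member of the class was Slc36a2, a proton-coupled carrier of small amino acids, with 2.20, 2.23 and 1.68 FPKM in sulfatide libraries, against 0.550, 1.09 and 1.18 FPKM in vehicle libraries (log2 fold change 0.66 ± 0.17, adjusted p = 0.0259). It did not pass without vehicle replicate 2 (0.0925), sulfatide replicate 1 (0.0817) or sulfatide replicate 2 (0.0634). Its neighbour Slc36a1, 19273 bases away on chromosome 11, was at 3.81, 6.33 and 4.22 FPKM in sulfatide libraries, against 5.19, 5.10 and 7.31 FPKM in vehicle libraries (log2 fold change -0.26, 95% interval -0.68 to 0.17, adjusted p = 0.367).

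Among 16 carriers of peptides, carboxylates and organic ions, 3 were lower and none higher, with a class median log2 fold change of -0.06. That is 18.75% called, against 18.7% of all genes tested. The rule left out Slc16a1 and Slc16a3, which belong to this class, so neither is in its counts or sums. Slc16a1 averaged 61.3 FPKM in sulfatide and 15.6 FPKM in vehicle libraries and was called higher. Slc16a3 averaged 507 FPKM in sulfatide and 489 FPKM in vehicle libraries and was not called. Slc15a3 and Slc15a4 move histidine and peptides, including fragments of bacterial cell wall, out of endolysosomes, and Slc15a4 is known as a partner of endosomal Toll-like receptor signalling. Slc15a3 was at 372, 427 and 452 FPKM in sulfatide libraries, against 744, 628 and 750.1 FPKM in vehicle libraries, 1.70-fold lower (log2 fold change -0.76 ± 0.11, adjusted p = 0.00133). The lowest vehicle library lay 176 FPKM above the highest sulfatide library. Its exons overlap those of Tmem132a on the opposite strand, which was at 36.5, 36.9 and 36.0 FPKM in sulfatide, against 52.4, 54.4 and 54.2 FPKM in vehicle libraries, and was also called lower (adjusted p = 0.00174). Whether fragments were split by strand is not given in the sources used here. Slc15a4 had 31.7 ± 1.98 FPKM in sulfatide and 39.5 ± 2.49 FPKM in vehicle libraries (log2 fold change -0.31 ± 0.09, adjusted p = 0.0485). It did not pass in any of the 6 fits that left out 1 library, with adjusted p of 0.0835, 0.0850 and 0.128 without vehicle replicates 2, 3 and 4, and 0.0747, 0.0828 and 0.166 without sulfatide replicates 1, 2 and 3. Slc16a10, which carries aromatic amino acids, had 123 ± 12.6 FPKM in sulfatide and 158 ± 16.1 FPKM in vehicle libraries (log2 fold change -0.36 ± 0.11, adjusted p = 0.0475). It too passed in none of these 6 fits (0.0742, 0.0519 and 0.149 without vehicle replicates 2, 3 and 4, and 0.161, 0.0600 and 0.0792 without sulfatide replicates 1, 2 and 3). The class summed to 584, 663 and 680 FPKM in sulfatide libraries, against 996, 897 and 1043 FPKM in vehicle libraries, most of it Slc15a3.

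Of 11 members of the sugar carrier class, 1 was lower and 1 higher (18.2% called, against 18.7% of all genes tested). The class follows the family number, so it also holds members with other substrates, such as Slc2a9, a carrier of urate. The class median log2 fold change was 0.23. Slc2a6 encodes GLUT6, a hexose transporter of lysosomes that inflammatory stimuli are known to induce in macrophages. It stood at 156, 119 and 134 FPKM in sulfatide libraries, against 219, 233 and 254 FPKM in vehicle libraries, 1.73-fold lower (log2 fold change -0.79 ± 0.11, adjusted p = 0.00150). Slc2a1, the main glucose importer of most cells, was at 221, 243 and 192 FPKM in sulfatide libraries, against 245, 229 and 250.1 FPKM in vehicle libraries, and the groups overlapped (log2 fold change -0.15, 95% interval -0.37 to 0.08, adjusted p = 0.325). The level of Slc2a6 relative to Slc2a1 was 0.708, 0.489 and 0.696 in sulfatide libraries, against 0.896, 1.02 and 1.02 in vehicle libraries, so that GLUT6 and GLUT1 transcripts were about even per length in vehicle and not in sulfatide libraries. Slc2a8, which encodes the intracellular transporter GLUT8, was higher, at 6.46, 6.39 and 5.75 FPKM in sulfatide libraries, against 4.07, 3.78 and 3.51 FPKM in vehicle libraries (1.64-fold, log2 fold change 0.59 ± 0.11, adjusted p = 0.00732). Slc2a9 was at 3.36, 3.93 and 3.95 FPKM in sulfatide libraries, against 2.80, 2.81 and 2.42 FPKM in vehicle libraries, with separate groups but an adjusted p above 0.05 (log2 fold change 0.37, 95% interval 0.10 to 0.64, adjusted p = 0.0621). Slc37a2, a sugar phosphate transporter of the endoplasmic reticulum known from macrophages, had 24.1 ± 3.70 FPKM in sulfatide and 20.6 ± 5.00 FPKM in vehicle libraries (log2 fold change 0.24, 95% interval -0.16 to 0.63, adjusted p = 0.374). Slc2a3 is not a member, with 0.830 FPKM in its highest library.

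The Slc25 family, mostly mitochondrial carriers, was the largest class, with 34 members, of which 5 were lower, none was higher and 29 were not called. The share called was 14.7%, against 18.7% of all genes tested. Their median log2 fold change was 0.06, above that of the members as a whole. Slc25a22, which brings glutamate into the matrix together with a proton, was at 23.2, 24.1 and 24.9 FPKM in sulfatide libraries, against 77.3, 54.1 and 76.3 FPKM in vehicle libraries, 2.88-fold lower (log2 fold change -1.47 ± 0.14, adjusted p = 0.000173). The 3 sulfatide libraries were within 1.65 FPKM of each other, and the lowest vehicle library was 2.18 times the highest sulfatide library. Its log2 fold change was -1.64 to -1.37 over the alternatives, and its adjusted p at most 0.00414. Slc25a12, the exchanger of aspartate for glutamate also called aralar, was at 33.5, 32.3 and 32.1 FPKM in sulfatide libraries, against 43.7, 42.0 and 50.04 FPKM in vehicle libraries (log2 fold change -0.46 ± 0.09, adjusted p = 0.0113). Its close relative Slc25a13 (citrin) was at 3.88, 4.00 and 4.02 FPKM in sulfatide libraries, against 3.75, 4.78 and 4.29 FPKM in vehicle libraries (log2 fold change -0.08, 95% interval -0.35 to 0.19, adjusted p = 0.662). Slc25a37, which encodes mitoferrin 1, an iron importer, was at 80.8, 80.1 and 83.7 FPKM in sulfatide libraries, against 111, 107 and 110.2 FPKM in vehicle libraries (log2 fold change -0.42 ± 0.08, adjusted p = 0.00515), and Slc25a28 (mitoferrin 2) was at 38.0, 33.7 and 38.6 FPKM in sulfatide libraries, against 38.7, 38.6 and 39.9 FPKM in vehicle libraries (log2 fold change -0.09, 95% interval -0.29 to 0.12, adjusted p = 0.535). The 3 libraries of each group agreed closely for Slc25a37, with an SD of 1.90 FPKM in sulfatide and of 1.90 FPKM in vehicle libraries.

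Slc25a22 has 3 annotated starts in RefSeq (GRCm38.p6), and the stretch around the middle one, in position along the chromosome, is shown since it holds a match to a motif (chr7:141435326-141435625, minus strand). Capitals mark the core of the interferon-stimulated response element, GAAA followed by any pair of bases and GAAA again, whose first base lies 79 bases before this start. Which start is used in these cells is not known from the files.
Slc25a22: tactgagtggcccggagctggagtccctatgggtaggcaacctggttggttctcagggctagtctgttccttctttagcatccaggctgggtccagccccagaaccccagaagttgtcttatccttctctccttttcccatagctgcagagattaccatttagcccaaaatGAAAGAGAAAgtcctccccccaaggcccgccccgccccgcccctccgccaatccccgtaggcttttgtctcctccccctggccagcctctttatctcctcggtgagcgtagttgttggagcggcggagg
Both strands of the same windows were searched for that core, TGACNNNGC (core of the antioxidant response element), TGATGNAA (core of the C/EBP-ATF response element) and CACGTG (E-box). The table holds a window for 130 of the 170 members, too few for shares over the family, and for 19 of the 21 members called lower. The interferon-stimulated response element core was found for 1 of these 19 (Slc25a22), or 5.26%, against 3.99% of 27025 genes with a window, 4.05% of the genes tested, 11.1% of all genes called lower and 1.54% of the 130 member windows. TGACNNNGC was found for 5 of 19, or 26.3%, against 14.0% of all genes with a window, 17.2% of the genes tested, 18.1% of all genes called lower and 24.6% of the 130 member windows. TGATGNAA was found for 1 of 19, or 5.26%, against 4.51% of all genes with a window, 2.80% of the genes tested, 4.21% of all genes called lower and 3.85% of the 130 member windows. CACGTG was found for 1 of 19, or 5.26%, against 8.09% of all genes with a window, 12.1% of the genes tested, 10.1% of all genes called lower and 19.2% of the 130 member windows. The shares of the 130 windows do not stand for all 170 members. A match is a description of the letters and not a site of binding.

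The other mitochondrial carriers called were Slc25a10, which exchanges dicarboxylates such as succinate and malate for phosphate, with 22.5 ± 3.74 FPKM in sulfatide and 34.3 ± 2.58 FPKM in vehicle libraries (log2 fold change -0.60 ± 0.13, adjusted p = 0.0134, and 0.0636 without vehicle replicate 2), and Slc25a25, an ATP-Mg and phosphate carrier, with 4.16 ± 0.722 FPKM in sulfatide and 6.80 ± 0.456 FPKM in vehicle libraries (log2 fold change -0.60 ± 0.13, adjusted p = 0.0150). Slc25a25 did not pass without vehicle replicate 2 (0.0513) or sulfatide replicate 3 (0.0550), and its exons overlap those of Naif1 on the opposite strand. The abundant carriers showed small differences of the other sign that did not pass. Slc25a3 had 491 ± 23.2 FPKM in sulfatide and 427 ± 53.9 FPKM in vehicle libraries (log2 fold change 0.21, 95% interval -0.02 to 0.44, adjusted p = 0.190, and 0.0384 without vehicle replicate 3), Slc25a5 had 418 ± 24.5 FPKM in sulfatide and 383 ± 31.3 FPKM in vehicle libraries (log2 fold change 0.12, 95% interval -0.08 to 0.33, adjusted p = 0.355), and Slc25a4 had 251 ± 10.0 FPKM in sulfatide and 235 ± 21.7 FPKM in vehicle libraries (log2 fold change 0.10, 95% interval -0.10 to 0.30, adjusted p = 0.464, -0.01 after rescaling to TPM). Slc25a1, the citrate carrier, had 74.8 ± 4.44 FPKM in sulfatide and 68.4 ± 2.82 FPKM in vehicle libraries (log2 fold change 0.13, 95% interval -0.07 to 0.32, adjusted p = 0.329). The class summed to 2064, 2035 and 2001 FPKM in sulfatide libraries, against 1948, 2106 and 1897 FPKM in vehicle libraries, and the groups overlapped.

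**Figure D3:**
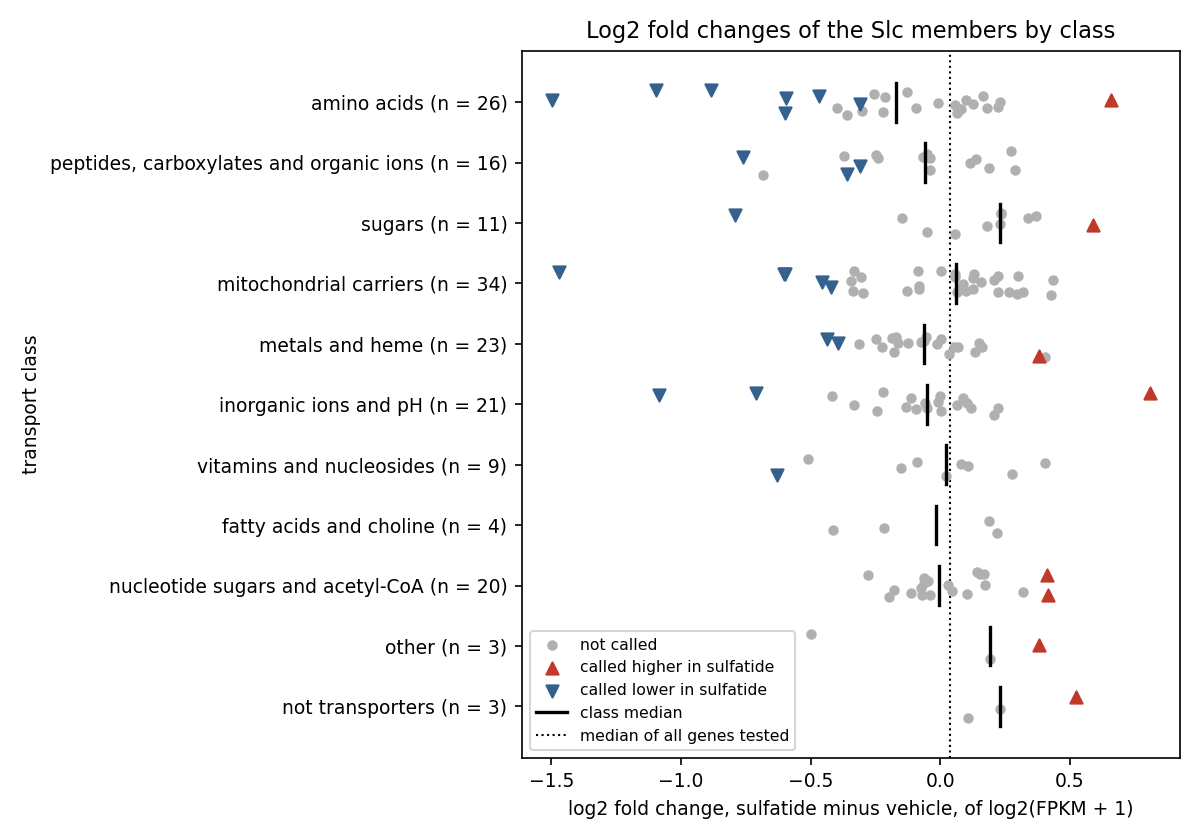
Log2 fold change, sulfatide minus vehicle on log2(FPKM + 1), of the 170 Slc members in 9 transport classes, with 3 members of other families and 3 that are not transporters in rows of their own. Triangles are called members and bars are class medians, which run from -0.17 for amino acid carriers to 0.23 for sugar carriers and for the genes that are not transporters, and the dotted line is the median of all genes tested (0.04).

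Of 23 carriers of metals and heme, 2 were lower and 1 higher (13.0% called, against 18.7% of all genes tested). None differed by 0.5 or more on the log2 scale. The copper genes Slc31a1 and Slc31a2 are neighbours on chromosome 4 (62360727 to 62391769 and 62262562 to 62298411, both on the plus strand, mm10), 62316 bases apart. Slc31a1 brings copper into the cell, and Slc31a2 sits in endosomes and lysosomes. Slc31a2 was at 370.1, 415 and 429.9 FPKM in sulfatide libraries, against 583, 508 and 556 FPKM in vehicle libraries (log2 fold change -0.44 ± 0.09, adjusted p = 0.0113, and 0.0653 without vehicle replicate 2). Slc31a1 was at 368, 480.2 and 452 FPKM in sulfatide libraries, against 447, 393 and 451 FPKM in vehicle libraries (log2 fold change 0.00, 95% interval -0.25 to 0.26, adjusted p = 0.986), and its log2 fold change was -0.11 after rescaling to TPM, -0.01 with array weights and -0.06, -0.07 and -0.03 without vehicle replicate 3 and sulfatide replicates 2 and 3. The ratio of Slc31a2 to Slc31a1 was 1.01, 0.865 and 0.951 in sulfatide libraries, against 1.30, 1.29 and 1.23 in vehicle libraries, with Slc31a1 the higher of the pair in 2 of 3 sulfatide libraries and Slc31a2 in the other libraries. The windows around their starts in RefSeq (GRCm38.p6, chr4:62286179-62286478 and chr4:62360451-62360750, both on the plus strand) are given to compare the neighbours. The start of Slc31a2 in RefSeq lies inside the gene as GENCODE draws it, downstream of its first start there. Capitals mark TGACNNNGC on the opposite strand, 164 bases before the start of Slc31a2, and CACGTG at that start. None of the 4 motifs is in the window of Slc31a1.
Slc31a2: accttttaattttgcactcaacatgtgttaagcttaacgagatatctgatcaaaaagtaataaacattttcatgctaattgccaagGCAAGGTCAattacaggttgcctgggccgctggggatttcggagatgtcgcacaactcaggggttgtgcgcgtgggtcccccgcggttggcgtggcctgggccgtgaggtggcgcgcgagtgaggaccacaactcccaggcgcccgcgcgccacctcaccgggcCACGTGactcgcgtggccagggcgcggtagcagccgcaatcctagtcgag
Slc31a1: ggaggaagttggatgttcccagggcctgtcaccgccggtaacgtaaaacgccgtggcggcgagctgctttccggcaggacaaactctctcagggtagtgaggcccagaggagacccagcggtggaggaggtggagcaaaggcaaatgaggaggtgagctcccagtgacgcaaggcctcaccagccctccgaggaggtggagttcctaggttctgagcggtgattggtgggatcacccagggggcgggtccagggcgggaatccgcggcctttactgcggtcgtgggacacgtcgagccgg

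Zinc carriers differed by small amounts. Slc30a1, which exports zinc from the cell, was at 15.4, 15.6 and 17.0 FPKM in sulfatide libraries, against 20.8, 19.9 and 23.4 FPKM in vehicle libraries (log2 fold change -0.39 ± 0.10, adjusted p = 0.0284). It passed in 1 of the 6 fits that left out a library, that without vehicle replicate 3, and its adjusted p was 0.0859 and 0.0969 without vehicle replicates 2 and 4, and 0.0941, 0.0565 and 0.0593 without sulfatide replicates 1, 2 and 3. Slc30a5, which loads zinc into the secretory pathway as a pair with Slc30a6, was higher, at 43.2, 44.9 and 42.2 FPKM in sulfatide libraries, against 32.8, 35.2 and 31.5 FPKM in vehicle libraries (log2 fold change 0.38 ± 0.09, adjusted p = 0.0177). Its call was lost without vehicle replicates 2 (0.0750) or 4 (0.0613), without sulfatide replicates 1 (0.0562) or 3 (0.0547), and after rescaling to TPM (0.0502). Slc30a6 was at 17.3, 17.96 and 18 FPKM in sulfatide libraries, against 21.2, 21.8 and 20.7 FPKM in vehicle libraries (log2 fold change -0.25, 95% interval -0.45 to -0.05, adjusted p = 0.0812). The ratio of Slc30a5 to Slc30a6 was 2.50, 2.50 and 2.34 in sulfatide libraries, against 1.54, 1.62 and 1.52 in vehicle libraries. None of the 11 zinc importers and related Slc39 members was called, among them Slc39a1, with 153 ± 12.5 FPKM in sulfatide and 171 ± 11.2 FPKM in vehicle libraries (log2 fold change -0.16, 95% interval -0.37 to 0.05, adjusted p = 0.248), and Slc39a14, with 28.9 ± 5.69 FPKM in sulfatide and 27.9 ± 1.19 FPKM in vehicle libraries (log2 fold change 0.03, 95% interval -0.27 to 0.33, adjusted p = 0.883, -0.07 after rescaling to TPM, -0.10 with array weights and -0.12 without sulfatide replicate 2). Slc48a1, which moves heme out of lysosomes, was at 153, 252 and 189 FPKM in sulfatide libraries, against 241, 180.0 and 270.5 FPKM in vehicle libraries (log2 fold change -0.23, 95% interval -0.66 to 0.21, adjusted p = 0.443). Its libraries spread more within each group than the groups differed, and its exons overlap those of Hdac7 on the opposite strand.

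Of 21 carriers of inorganic ions and pH regulation, 2 were lower and 1 higher (14.3% called, against 18.7% of all genes tested). Slc12a4, the potassium and chloride cotransporter KCC1, was at 37.7, 40.4 and 35.8 FPKM in sulfatide libraries, against 65.5, 62.1 and 60.6 FPKM in vehicle libraries, 1.65-fold lower (log2 fold change -0.71 ± 0.09, adjusted p = 0.000704), and made up 47.1, 50.5 and 44.9% of the summed FPKM of the 4 Slc12 members in sulfatide libraries, against 64.2, 64.4 and 58.4% in vehicle libraries. Slc4a7, a sodium and bicarbonate cotransporter, was at 1.07, 2.20 and 1.14 FPKM in sulfatide libraries, against 5.09, 3.73 and 3.69 FPKM in vehicle libraries, 2.84-fold lower (log2 fold change -1.08 ± 0.19, adjusted p = 0.00501). Sulfatide replicate 2 was about double the other 2 sulfatide libraries and still under each vehicle library. Slc26a11, an anion transporter of the sulfate transporter family, had the largest rise of the members, at 3.32, 2.71 and 2.89 FPKM in sulfatide libraries, against 1.23, 0.840 and 1.83 FPKM in vehicle libraries (log2 fold change 0.81 ± 0.17, adjusted p = 0.0120, and 0.0519 without vehicle replicate 2), at levels near the threshold. Slc9a3r1, the scaffold that anchors sodium and proton exchangers to the cytoskeleton, was at 139, 135 and 134 FPKM in sulfatide libraries, against 88.5, 88.9 and 107 FPKM in vehicle libraries (1.44-fold, log2 fold change 0.52 ± 0.09, adjusted p = 0.00560).

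Vitamin and nucleoside carriers held 1 lower member of 9 and no higher one (11.1% called, against 18.7% of all genes tested). Slc23a2, which brings ascorbate into cells, was at 8.16, 11.3 and 7.92 FPKM in sulfatide libraries, against 16.9, 11.4 and 15.7 FPKM in vehicle libraries (log2 fold change -0.63 ± 0.17, adjusted p = 0.0365), and the highest sulfatide library and the lowest vehicle library were within 0.10 FPKM. It did not pass without vehicle replicates 2 (0.147) or 4 (0.113) or sulfatide replicates 1 (0.107) or 3 (0.114). Slc19a2, a thiamine carrier, was at 3.88, 3.59 and 3.03 FPKM in sulfatide libraries, against 2.32, 2.58 and 2.27 FPKM in vehicle libraries and missed the threshold (log2 fold change 0.41, 95% interval 0.12 to 0.69, adjusted p = 0.0512). Slc29a3, the lysosomal nucleoside transporter, was at 0.930, 1.1 and 0.450 FPKM in sulfatide libraries, against 1.77, 0.940 and 2.17 FPKM in vehicle libraries (log2 fold change -0.51, 95% interval -0.99 to -0.03, adjusted p = 0.125, and 0.0271 without vehicle replicate 3). Slc46a1, the proton-coupled folate transporter, had 3.75 ± 0.459 FPKM in sulfatide and 3.68 ± 0.569 FPKM in vehicle libraries (log2 fold change 0.02, 95% interval -0.28 to 0.33, adjusted p = 0.923, and -0.06 after rescaling to TPM). None of the 4 carriers of fatty acids and choline was called. The choline carrier Slc44a1 was at 39.9, 54.9 and 46.7 FPKM in sulfatide libraries, against 66.5, 56.2 and 65.6 FPKM in vehicle libraries (log2 fold change -0.41, 95% interval -0.70 to -0.13, adjusted p = 0.0506, and 0.0259 and 0.0227 without vehicle replicate 3 and sulfatide replicate 2), the choline carrier family member Slc44a2 had 14.5 ± 0.866 FPKM in sulfatide and 12.3 ± 0.491 FPKM in vehicle libraries (log2 fold change 0.22, 95% interval -0.00 to 0.44, adjusted p = 0.156), and the fatty acid carrier Slc27a1 had 49.9 ± 1.82 FPKM in sulfatide and 58.3 ± 4.24 FPKM in vehicle libraries (log2 fold change -0.22, 95% interval -0.42 to -0.02, adjusted p = 0.116).

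Carriers of nucleotide sugars and acetyl-CoA, which serve the Golgi and endoplasmic reticulum, had 2 higher and no lower members of 20. That is 10.0% called, against 18.7% of all genes tested, and all 20 lay within 0.5 of 0 on the log2 scale. Slc35a2, the carrier of UDP-galactose, was at 17.9, 17.9 and 18.2 FPKM in sulfatide libraries, against 13.7, 14.1 and 12.1 FPKM in vehicle libraries (log2 fold change 0.41 ± 0.10, adjusted p = 0.0205). The 3 sulfatide libraries were within 0.300 FPKM of each other. Its call was lost without vehicle replicates 2 (0.0630) or 4 (0.0704) or sulfatide replicates 1 (0.0609) or 3 (0.0740). Slc35c2, a Golgi member linked to fucosylation, was at 41.5, 39.2 and 41.1 FPKM in sulfatide libraries, against 28.1, 27.4 and 35.9 FPKM in vehicle libraries (log2 fold change 0.41 ± 0.11, adjusted p = 0.0376). It passed in 1 of the 6 fits that left out a library, that without vehicle replicate 4, with adjusted p of 0.147 and 0.0652 without vehicle replicates 2 and 3, and 0.107, 0.0573 and 0.108 without sulfatide replicates 1, 2 and 3, and it was at 0.104 after rescaling to TPM. Slc35a1, the carrier of CMP-sialic acid, had 13.3 ± 2.35 FPKM in sulfatide and 10.4 ± 1.28 FPKM in vehicle libraries (log2 fold change 0.32, 95% interval -0.01 to 0.65, adjusted p = 0.164, and 0.0443 without sulfatide replicate 2). Outside the classes, Slc66a1, which exports cationic amino acids from lysosomes, was at 29.3, 27.9 and 32.2 FPKM in sulfatide libraries, against 22.4, 21.6 and 23.9 FPKM in vehicle libraries (log2 fold change 0.38 ± 0.10, adjusted p = 0.0260). It did not pass without vehicle replicate 2 (0.0961), without sulfatide replicates 1 (0.0696) or 3 (0.108), or after rescaling to TPM (0.0785).

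Several related members did not keep their ratio between the groups. The ratio of Slc7a8 to Slc7a5, the exchangers LAT2 and LAT1, was 0.569, 0.844 and 0.905 in sulfatide libraries, against 1.86, 1.27 and 1.94 in vehicle libraries, so LAT1 transcripts exceeded LAT2 transcripts per length in each sulfatide library and the reverse held in each vehicle library. The ratio of Slc25a37 to Slc25a28 was 2.13, 2.37 and 2.17 in sulfatide libraries, against 2.87, 2.79 and 2.77 in vehicle libraries, and that of Slc6a12 to Slc6a13 was 7.17, 7.67 and 8.597 in sulfatide libraries, against 20.9, 19.0 and 24.4 in vehicle libraries. The ratio of Slc15a3 to Slc15a4, both lower in sulfatide, was 11.0, 13.6 and 15.1 in sulfatide libraries, against 20.2, 15.1 and 18.7 in vehicle libraries, and its groups overlapped through sulfatide replicate 3 and vehicle replicate 3. Where a called member is set over a relative that was not called, the ratio restates that call. These pairs were chosen after their values were seen, so the ratios are a description.

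**Figure D4:**
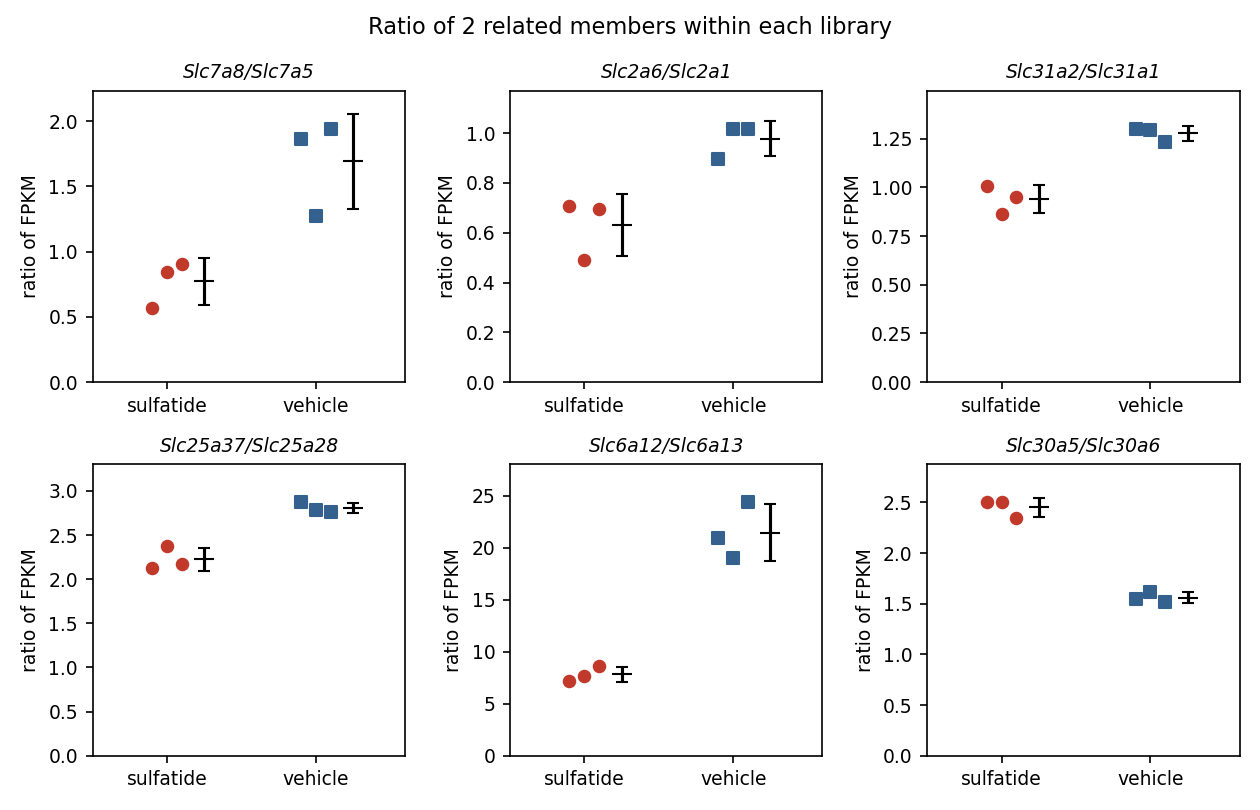
Ratio of the FPKM of 2 related members in each library, 3 sulfatide libraries (circles, left) and 3 vehicle libraries (squares, right), with mean ± SD beside them. In the 6 pairs shown, which were chosen after their values were seen, the groups do not overlap. The ratio is lower in sulfatide in each pair except Slc30a5/Slc30a6. Slc15a3/Slc15a4 and Slc35a2/Slc35a1, whose groups overlapped, are not shown.

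Transporters outside the Slc symbols were tested in the same fit. Of 24 tested genes of the ABC family, most of which pump substrates with ATP, 3 were lower and 1 higher (median log2 fold change -0.01). The 24 include 4 that act in translation and are not transporters, Abce1, Abcf1, Abcf2 and Abcf3, and none of these was called. Abcc1, an exporter of leukotrienes and glutathione conjugates, had 34.3 FPKM in sulfatide and 61.2 FPKM in vehicle libraries (log2 fold change -0.86, adjusted p = 0.0190). Of 30 tested solute carriers that go by other symbols, 4 were lower and 2 higher (median 0.03). The organic anion transporter Slco3a1 had 24.1 FPKM in sulfatide and 59.8 FPKM in vehicle libraries (log2 fold change -1.29, adjusted p = 0.000154). The share called was 16.7% of the ABC family and 20.0% of the solute carriers under other symbols, against 18.7% of all genes tested. Without the 4 that act in translation, the share of the ABC family was 20.0%.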

How the data were processed

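RNA of lavage cells of 6 libraries was measured by poly(A) RNA sequencing with strand-specific (dUTP) libraries, per the labels' protocols, on mm10, per the submitters' processing notes. The authors deposited 1 table of FPKM values rounded to 2 decimals. For the aligner, the counting program, its annotation and its use of strand, a name or setting is not given in the sources used here. The table's 3 value columns that match no sample were not used. FPKM are not counts, so log2(FPKM + 1) was tested with limma 3.58.1 in R 4.3.3 (lmFit and eBayes with an intensity trend, 2-sided, Benjamini-Hochberg adjustment over 10405 genes at 1 FPKM or more in at least 3 libraries) and checked on simulated data. The simulated noise was normal and independent between genes, so the check does not cover deviations that many genes of a library share. Log2 fold changes are sulfatide minus vehicle, with standard errors. Folds are ratios of mean FPKM. An exact 2-sided permutation test of 3 against 3 libraries cannot go below 0.1 and was not used.

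Classes follow the family number. The members and lists were chosen with earlier results of these data known. Named members are, per direction, up to 10 called members of largest change (groups not overlapping, 5 FPKM or more on average in the group where the gene is higher), the 8 with the highest mean, up to 3 with the smallest p in each class, and a set given whatever its result. Slc36a2, Slc38a6, Slc6a4 and the members named only as relatives, neighbours or near the threshold lie outside this rule, and their choice came after a look at their values, as did that of the related pairs and the 2 genes named from the other transporter lists. Gene positions and overlaps are from GENCODE vM21, with 3 members matched by an older symbol. Promoter windows are from RefSeq. The result of 1 marker list is not reported here. The alternatives used a pseudocount of 0.1 or 0.5, TPM, a filter at 5 FPKM or none, quantile normalization, array weights, a replicate block and leaving out each library.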

Additional observations from a re-analysis of the deposited data

How the results depend on the processing

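Pseudocounts, quantile normalization, no filter and a filter at 5 FPKM, which left 125 members, gave 6 to 10 higher and 16 to 21 lower members, against 8 and 21. Rescaling to TPM gave 5 and 29, with a median log2 fold change of -0.12, and lowered the median of all genes tested from 0.04 to -0.06. Array weights gave 24 and 36, with 36.3% of all genes tested called. The labels do not say whether the replicate numbers pair the libraries. Deviations from the group means correlated at 0.16 over genes for replicates 2 and at -0.30 for replicates 3. Libraries of unlike number ranged from -0.40 (sulfatide 1 and vehicle 4) to 0.54 (sulfatide 1 and vehicle 3), so these values cannot decide it. With the replicate number as a block 3 members were higher and 8 lower, with 8.96% of all genes tested called. Leaving out 1 library gave 2 to 10 higher and 9 to 23 lower members, and a median of -0.05 to 0.02. Of the called members, 8 passed in every alternative that could be fitted: Slc7a8, Slc25a22, Slc6a12, Slc4a7, Slc2a6, Slc15a3, Slc12a4 and Slc9a3r1. Over 51 single members and 705 values, 90 calls were lost, 22 were gained and 15 values changed sign, none of them called. After rescaling to TPM the log2 fold change was -0.031 for Slc1a5, -0.012 for Slc25a4, -0.107 for Slc31a1, -0.074 for Slc39a14 and -0.063 for Slc46a1. With array weights it was -0.014 for Slc31a1 and -0.096 for Slc39a14, and with the block 0.069 for Slc48a1. Leaving out 1 library gave -0.074 to 0.117 for Slc31a1, -0.117 to 0.129 for Slc39a14 and -0.055 to 0.119 for Slc46a1, which were 0.00, 0.03 and 0.02 with all libraries. The cause of these differences was not tested. The absolute depth is unknown, so counting error could not be set against the spread between libraries.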

Other observations

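The libraries of a group ranked differently for solute carriers than for all genes. Sulfatide replicate 2 was the highest of its group for 48.8% of the members and for 35.0% of all genes tested, while sulfatide replicate 1 was highest for 31.2% and 45.2%. Among vehicle libraries, replicate 4 was highest for 44.7% of the members and for 30.4% of all genes tested, and replicate 3 for 39.4% and 50.8%. The median coefficient of variation within groups was 11.1% over the members in sulfatide and 9.65% in vehicle libraries, against 9.97% and 10.3% over all genes tested. Members with wide spread included the zinc importer Slc39a4, at 5.97, 14.5 and 8.74 FPKM in sulfatide libraries, against 8.12, 7.01 and 9.60 FPKM in vehicle libraries, and the dicarboxylate carrier Slc13a3, at 2.49, 5.74 and 4.22 FPKM, against 8.01, 4.70 and 8.88 FPKM (adjusted p = 0.106, and 0.0239 without vehicle replicate 3). These members were chosen after their values were seen.

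By level, 7 of 47 members with a mean under 5 FPKM were called (14.9%, against 12.7% of all genes at that level), 5 of 53 at 5 to 20 FPKM (9.43%, against 17.0%), 11 of 54 at 20 to 100 FPKM (20.4%, against 20.1%) and 6 of 16 at 100 FPKM or more (37.5%, against 27.5%). These counts were not tested.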
